A study of Mus musculus with 18 samples.

Results

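The 9 genes Lhx2, Sox9, Cd34, Nfatc1, Tbx1, Lrig1, Trp63, Gata3 and Foxc1 are regulators and surface markers of the stem cells of the hair follicle. They were taken by their symbols from the count matrices, where all 9 of 9 were present among 32285 genes. Their levels are described by keratinocyte subset, by treatment arm and by day in mouse skin after surgery, and then in the other cells of the skin. Membership rests on the symbols alone, but the set was put together with earlier results of these data known.

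All mice had the same operation, with an incision near the tail and a path opened under the skin towards the neck. In the expanded arm (EXP) a hydrogel expander was placed there under the skin to stretch it, whereas the control arm (CTRL) had the operation with no expander. Skin was taken on day 1, 2 or 4, and living cells were sorted and sequenced with 10x Genomics 3′ chemistry. Each arm had 5 mRNA libraries, 2 of day 1, 2 of day 2 and 1 of day 4, and the control and expanded libraries of a day and sequencing round form a pair. Each library pooled the mice of its arm and round, so 1 library counts as 1 replicate, and the values do not separate mouse from mouse. Strain and age were not given in the sources used here. The control library of day 1, round 2 has a title that speaks of hashing, but its library name and type say mRNA, and it was used as such.

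The follicle grows in cycles from stem cells that rest in the bulge, a niche below the sebaceous gland, and from the hair germ under it, which starts the next growth phase. Cells above the bulge, in the isthmus and infundibulum, and basal cells of the epidermis between follicles keep their own compartments but can move between them after injury. Lhx2 (a LIM homeodomain factor), Sox9 (an SRY-box factor), Nfatc1 (a calcineurin-dependent factor), Tbx1 (a T-box factor) and Foxc1 (a forkhead factor) are known for holding bulge cells in their identity or in rest. Cd34 is a surface sialomucin used to sort mouse bulge cells, and it also marks vessels and dermal fibroblasts. Lrig1 is a transmembrane inhibitor of ERBB receptors and marks stem cells of the upper follicle. Trp63 encodes p63, the master factor of basal keratinocytes. Gata3 acts in the inner root sheath and in epidermal differentiation, and also in T cells and innate lymphoid cells.

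On the mouse assembly GRCm38 the GENCODE annotation places these protein-coding genes on 7 chromosomes. Lhx2 (ENSMUSG00000000247) lies at chr2:38339281-38369733 and Gata3 (ENSMUSG00000015619) at chr2:9857078-9890034. Sox9 (ENSMUSG00000000567) lies at chr11:112782224-112787760, Cd34 (ENSMUSG00000016494) at chr1:194938819-194961279 and Lrig1 (ENSMUSG00000030029) at chr6:94604529-94700158. Tbx1 (ENSMUSG00000009097) lies at chr16:18580979-18590671 and Trp63 (ENSMUSG00000022510) at chr16:25683763-25892102. Nfatc1 (ENSMUSG00000033016) lies at chr18:80606205-80713071 and Foxc1 (ENSMUSG00000050295) at chr13:31806633-31812476.

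After filtering, 44811 cells remained, 27929 control and 16882 expanded, with a median of 6303 to 12687.5 unique molecular identifiers (UMIs) per cell and library. Of these, 4825 cells in clusters with keratinocyte markers (1981 control, 2844 expanded) were clustered again, without the 9 genes among the genes used. All 12 keratinocyte markers were detected in the keratinocytes of every library, at a summed level of 19860 to 29476 CPM (UMIs of a gene over all UMIs of the summed cells, scaled to a fixed total). Subset names, except that of the basal pool, mean that a cluster resembles that cell type by markers: bulge (1613 cells), hair germ (317), hair matrix (192, of which 187 were control cells), inner bulge or companion layer (194), upper follicle (318), sebaceous gland (271), spinous (137), cycling (284), 1 unnamed cluster (149) and a basal pool (1350). The basal pool joins 4 clusters that the marker lists did not name but that held 7 to 10 of 10 basal keratinocyte markers above the spinous level. Only cluster 3 of the 4 (199 cells) had basal keratinocytes as its nearest list. Clusters 0 (441), 1 (279) and 7 (431) were, among the keratinocyte lists, nearest to upper follicle, inner bulge or companion and bulge, with 1 or 2 markers. Over all lists cluster 0 was nearest to Langerhans cells, with a share of 0.333 of that list. The bulge clusters held 8 or 9 basal markers by the same rule, hair germ 8, and inner bulge or companion and cycling cells 7. The count of basal markers thus does not set the pool apart from these subsets. The hair germ name rests on 3 markers, Lef1, Msx2 and Hoxc13, a share of 0.375 of a joint list for hair germ or matrix. The hair matrix cluster held these markers too, and the hair germ was told apart from it only by low Krt25. Fibroblast markers (9 genes) summed to 144 to 1035 CPM in control keratinocytes and to 16.1 to 150 CPM in expanded ones. Pairs of libraries shared at most 0.338% of the cell barcodes of the smaller one.

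Among the keratinocytes, Lhx2, Cd34 and Tbx1 were high in bulge and inner bulge or companion cells and low in the basal pool and upper follicle, Trp63 was found in every subset, and Sox9, Foxc1, Nfatc1, Lrig1 and Gata3 lay between these patterns. These levels are means ± SD over libraries with at least 20 cells of the subset, and since clusters come from the same cells they carry no test.

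Lhx2 was highest in inner bulge or companion cells (350.2 ± 99.2 CPM, n = 4 libraries), hair germ (321 ± 65.6, n = 6) and bulge (295 ± 128, n = 9), which did not differ beyond their spread. Hair matrix followed at 211 ± 145 CPM (n = 3) and the unnamed cluster at 148 ± 83.4 (n = 4). The level fell to 47.6 ± 30.4 CPM in cycling cells, 24.1 ± 14.6 in the basal pool and 19.99 ± 20.2 in the upper follicle. It was 1.60 ± 2.23 CPM in sebaceous cells, and none of the 137 spinous cells had a UMI, which allows a share of cells with a UMI of up to 2.19%. Of the bulge cells, 85.1% had an Lhx2 UMI (46.2% when each cell was thinned to 2000 UMIs), against 0.641% of T cells or innate lymphoid cells (0.278% thinned), which serve as a background. The share was 15.5% in the basal pool (5.21% thinned), above that background. Median depths were 10153 UMIs in bulge cells and 4284 in T cells or innate lymphoid cells.

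Tbx1 was likewise highest in 3 subsets, with 157 ± 69.3 CPM in inner bulge or companion cells, 150 ± 26.3 in bulge and 114 ± 70.8 in hair germ, again within their spread. The hair matrix set the genes apart, since Tbx1 was 8.92, 6.09 and 38.2 CPM in the 3 libraries where Lhx2 was 138, 118 and 379 CPM. In the basal pool it stood at 5.20 ± 3.63 CPM and in the upper follicle at 2.04 ± 1.71. The pair had a Pearson correlation of 0.84 over 57 sums of a subset in a library. As Lhx2 and Tbx1 followed each other outside the hair matrix, the 250 bases before their annotated starts are given here, read from RefSeq promoters of GRCm38.p6 (entries matched for 6 of the 9 genes). Capitals mark every GC box, GGGCGG, on the strand shown or its complement.
Lhx2, chr2:38339031-38339280, plus strand: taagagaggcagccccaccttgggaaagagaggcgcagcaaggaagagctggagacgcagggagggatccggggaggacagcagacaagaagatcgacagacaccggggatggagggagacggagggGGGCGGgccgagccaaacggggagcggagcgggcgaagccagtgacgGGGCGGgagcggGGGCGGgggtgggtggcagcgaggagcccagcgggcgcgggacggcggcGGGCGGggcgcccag
Tbx1, chr16:18590672-18590921, minus strand: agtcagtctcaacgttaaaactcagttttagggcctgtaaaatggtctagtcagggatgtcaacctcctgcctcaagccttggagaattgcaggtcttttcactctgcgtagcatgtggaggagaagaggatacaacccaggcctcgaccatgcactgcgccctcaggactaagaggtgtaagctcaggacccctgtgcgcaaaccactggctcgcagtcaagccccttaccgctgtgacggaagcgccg
The Lhx2 window held 4 GC boxes and 72.8% G or C, and the Tbx1 window held 0 GC boxes and 54.4% G or C. Of 32851 mouse promoter windows of the same length, 32.7% held a GC box. A second RefSeq start of each gene is not printed, and the windows before those held 0 GC boxes for Lhx2 and 1 for Tbx1. Neither printed window held a letter string of the factor families represented here, searched on both strands: TAATTA for LIM homeodomain factors (in 4.84% of windows), AACAAT for SOX (9.42%), GGAAAA for NFAT (20.4%), TGTTTAC for forkhead (3.17%), GGTGTGA for T-box (3.33%) and AGATAA for GATA factors (9.99%). Nor did either hold the p53-family motif (0.49%) or the TATA box, TATAAA (12.4%). Of these strings the second windows held 1, a GGAAAA of Lhx2.

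Within the follicle Cd34 was found mainly in the bulge. It reached 299 ± 110 CPM in bulge (n = 9; range 149 to 496) and 209 ± 94.4 in inner bulge or companion cells (n = 4), and was 12.2 ± 8.15 in hair germ, 37.2 ± 43.8 in cycling cells and 2.56 to 6.73 CPM on average in the other subsets except spinous cells, where both libraries were at 0. Of bulge cells 73.0% had a Cd34 UMI, against 11.0% of hair germ and 3.04% of basal pool cells, and 1.92% of T cells or innate lymphoid cells. Thus Lhx2 and Tbx1 were high in both bulge and hair germ, and Cd34 was high in bulge alone of those 2 subsets.

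Sox9 was found in nearly the whole follicle. Its highest level, 1676 ± 351 CPM (n = 4), was in the unnamed cluster, followed by inner bulge or companion cells (1225 ± 168) and bulge (866 ± 173). Sebaceous cells (615 ± 233), the basal pool (593 ± 123), cycling cells (474 ± 181), upper follicle (470 ± 166) and hair germ (422 ± 289.7) did not differ beyond their spread. Hair matrix (79.4 ± 24.5) and spinous cells (24.1 ± 16.7, n = 2) were far below.

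Foxc1 had a similar course, with 203 ± 49.2 CPM in inner bulge or companion cells, 91.7 ± 21.3 in the basal pool, 87.4 ± 22.7 in bulge and 81.3 ± 20.6 in the upper follicle, and it was nearly absent from hair matrix (2.91 ± 3.48) and spinous cells (1.36 ± 0.186). Nfatc1 was highest in inner bulge or companion cells (139 ± 20.8 CPM) and bulge (138 ± 24.2), then in the basal pool (93.9 ± 24.1) and upper follicle (59.0 ± 23.5), and lowest in hair matrix (6.59 ± 1.62). Outside the epithelium Nfatc1 was as high in mast cells (166 ± 55.0, n = 8), skeletal muscle (156 ± 45.2, n = 3) and fibroblasts (113 ± 18.1, n = 10), levels within the spread of those in the bulge.

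Lrig1 showed the reverse of the bulge pattern. It stood at 101 ± 31.8 CPM in the basal pool, 81.7 ± 23.8 in the unnamed cluster and 64.2 ± 31.0 in the upper follicle, against 29.4 ± 17.8 in bulge, 27.1 ± 7.04 in hair germ and 6.43 ± 0.654 in hair matrix. Gata3 peaked in spinous cells (301 ± 59.4 CPM, n = 2), ahead of the upper follicle (143 ± 47.0) and basal pool (112 ± 23.9), and 88.3% of spinous cells had a UMI. In T cells or innate lymphoid cells, where Gata3 is also known to act, it reached 180 ± 57.0 CPM (n = 10). Trp63 ranged from 136 ± 17.2 CPM in hair matrix to 311 ± 72.3 in bulge and stayed at or below 6.63 CPM on average in every cell class outside the keratinocytes.

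**Figure D1:**
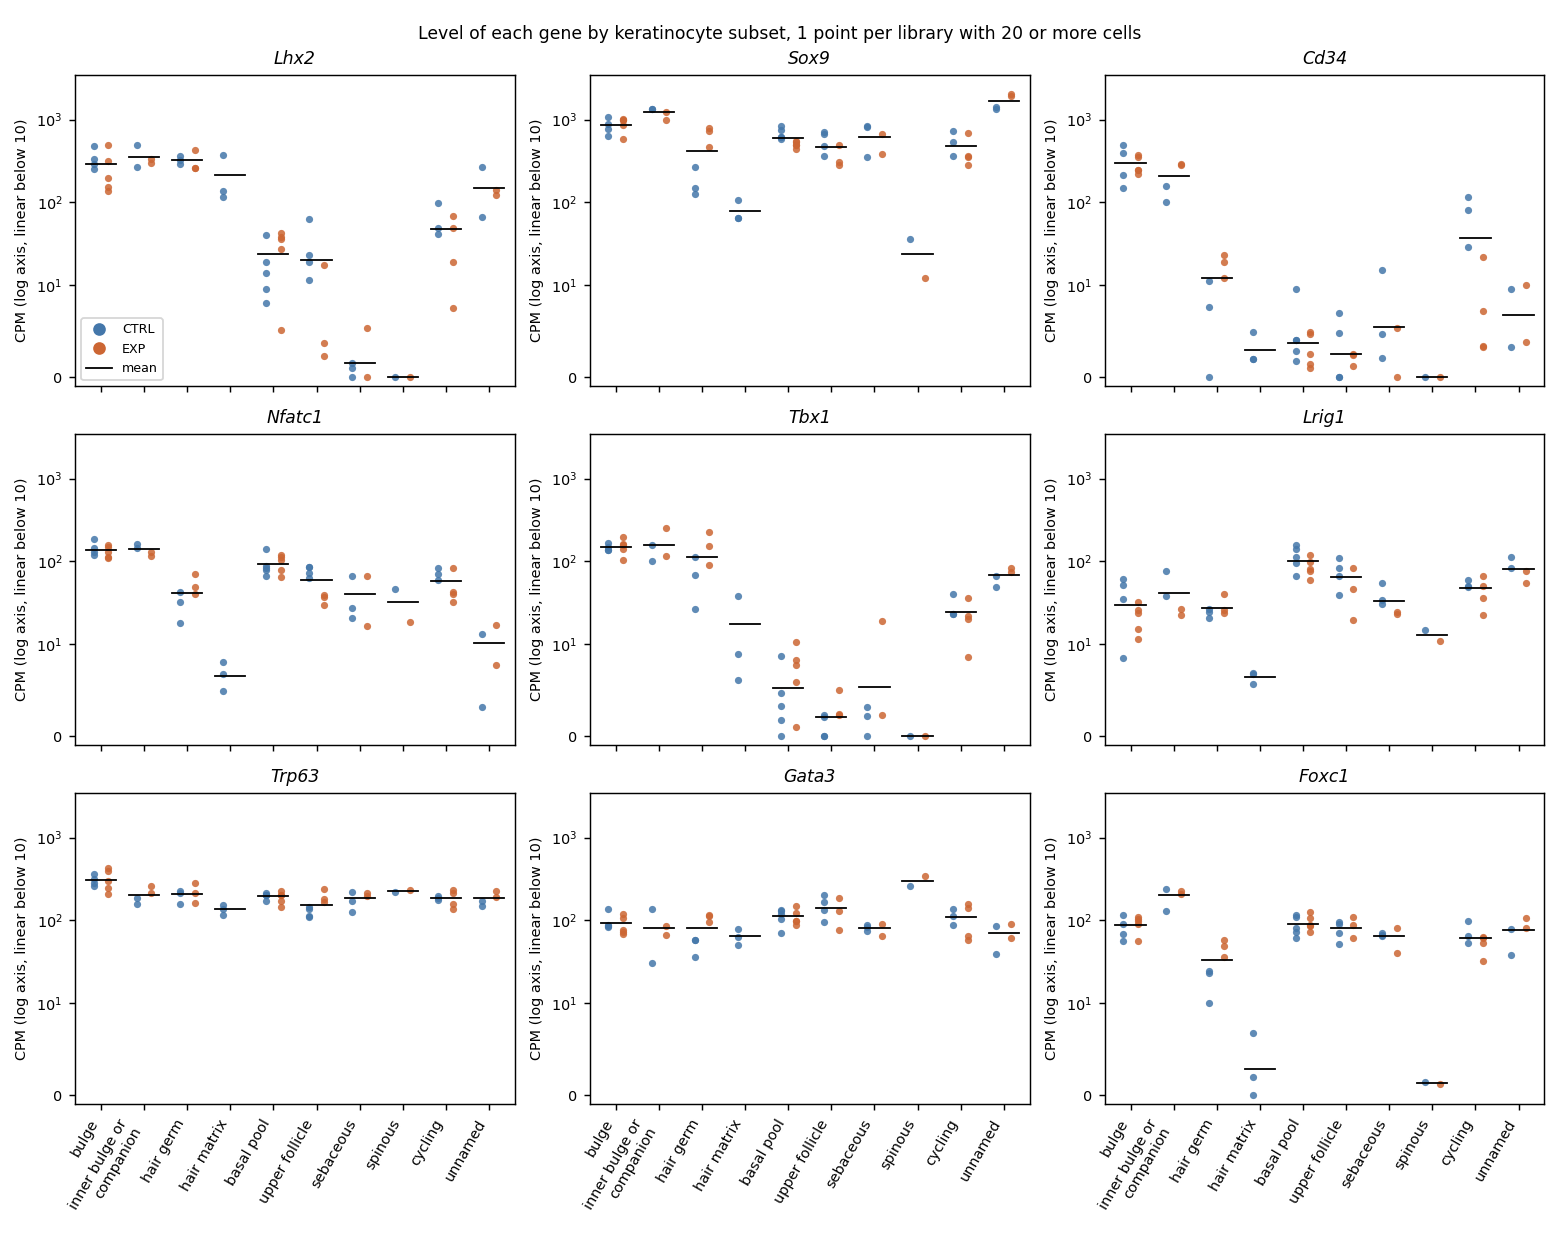
Level of the 9 genes (vertical axes, CPM on a log axis that is linear below 10) in 10 keratinocyte subsets (horizontal axes), 1 point per library with 20 or more cells, control libraries in blue and expanded in orange, with the mean over libraries as a black line. Lhx2, Cd34 and Tbx1 drop from bulge to the basal pool (means of 295, 299 and 150 against 24.1, 3.70 and 5.20 CPM), and Lrig1 is higher in the basal pool. Trp63 is found in every subset, lowest in hair matrix and highest in bulge.

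Over the same 57 sums of log2(CPM + 1), which share libraries, depth and cluster labels, the genes most like each member were as follows, out of 7838 genes with a mean of at least 10 CPM. Lhx2 was most like Hoxc13 (Pearson r = 0.90), Eps8 and Gm973. Sox9 was most like Foxc1 (r = 0.85), S100a6 and Slc27a1, and Foxc1 in turn like Sox9, Itgb8 and Sostdc1. Cd34 was most like Trabd2b (r = 0.82), Krt24 and Wfdc3, and Tbx1 like Shisa2 (r = 0.92), Rhoc and Atp8a2. Nfatc1 was most like Col17a1 (r = 0.87), a hemidesmosome collagen, Krt15, a keratin of basal and bulge cells, and Ppp2r3a. Lrig1 was most like Adgrl2 (r = 0.78), Egr2 and Apoe. Trp63 (Gas6, r = 0.73, Slc6a6, Sfrp1) and Gata3 (Dgcr6, r = 0.72, Ap1b1, Hlf) had the weakest best matches.

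The first comparison asked whether the genes differed between the arms in keratinocytes as a whole. Of the 9 genes, 0 passed an adjusted p of 0.05 in edgeR's quasi-likelihood fit, which held day constant, 0 had an unadjusted p under 0.05, and DESeq2 called 0. Of all 11465 genes tested, 7.34% were called and 26.2% had an unadjusted p under 0.05. Adjusted p-values ran from 0.228 for Foxc1 to 0.908 for Sox9. Lhx2 was 185, 105, 116, 128 and 182 CPM in the control libraries (day 1 rounds 1 and 2, day 2 rounds 1 and 2, day 4) and 239, 149, 58.8, 86.6 and 73.0 CPM in the expanded ones in the same order. The arms overlapped, and the log2 fold change of expanded over control was -0.41 (95% interval -1.07 to 0.24, adjusted p = 0.353). Sox9 gave 563 ± 111 CPM in control and 592 ± 120.3 in expanded libraries (SD, n = 5 each), with a log2 fold change of 0.03 (-0.28 to 0.35). Tbx1 was higher in 4 of 5 pairs, at 42.9 ± 12.9 against 62.2 ± 24.5 CPM (log2 0.42, adjusted p = 0.281). It was called when the control library of day 2, round 2 was left out (log2 0.71, adjusted p = 0.0454), where 1556 of 11778 genes were called.

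A total over keratinocytes moves with the mix of subsets. The bulge made up 24.7% ± 5.92 of control and 35.3% ± 10.3 of expanded keratinocytes, and the hair matrix 7.13% ± 6.40 and 0.420% ± 0.781. None of the 10 subset shares passed after adjustment when 5 control and 5 expanded libraries were permuted exactly, two-sided (lowest exact p = 0.0476 for spinous cells, adjusted 0.317), where the smallest p possible is 0.00794. With the libraries compared as pairs, a test added after seeing the data, the bulge share was higher in the expanded library of 5 of 5 pairs and the spinous share lower in 5 of 5. Both had an exact two-sided p of 0.0625, the smallest that 5 pairs can give (adjusted 0.313). The tests were therefore repeated within the bulge and the basal pool, the only named subsets with 20 cells in at least 4 libraries per arm.

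In the bulge, 0 of 9 genes were called, against 2.45% of 8315 genes, and the control library of day 2, round 1 had too few bulge cells to enter. Lhx2 was 482, 332, 252.0 and 289 CPM in the control libraries and 493.5, 313, 154, 138 and 200 in the expanded ones, with lower values after day 1 among these 9 libraries and an overlap between arms (log2 -0.39, SE 0.18, adjusted p = 0.25). The control library left out, with 12 bulge cells and 43 Lhx2 UMIs, was at 637 CPM, the highest of the 10, and with it the log2 fold change was -0.57 (adjusted p = 0.204). Lrig1 was the only gene of the 9 with an unadjusted p under 0.05 there, as had 20% of all genes, and DESeq2 called 0 genes of the 9. It stood at 61.1, 51.7, 8.46 and 35.03 CPM in control and 32.6, 25.6, 15.2, 11.6 and 23.7 CPM in expanded libraries (log2 -0.71, SE 0.23, adjusted p = 0.121). Sox9 (839 ± 186 against 888 ± 181 CPM), Cd34 (312 ± 159 against 288 ± 69.2), Nfatc1 (145 ± 28.8 against 132 ± 21.1), Tbx1 (147 ± 13.1 against 153 ± 35.04) and Trp63 (305 ± 43.0 against 316 ± 94.8) differed by less than the spread between libraries. The 95% intervals of these 5 log2 fold changes lay between -0.66 and 0.48. Fibroblast markers summed to 176 to 1004 CPM in control bulge cells and 13.9 to 159 CPM in expanded ones, and their part in the Cd34 values was not tested. The bulge joins clusters 5, 6, 10, 11 and 15, and cluster 11 held only 3 bulge markers. Cluster 15, with Cd34 among its leading genes, made up 5.47% and 5.84% of control bulge cells of day 1. Its share was 19.8% and 16.6% in expanded ones, but lower in the expanded library of each later pair. Cluster 11 fell from 11.7% and 34.4% to 9.58% and 6.99% on day 1, but not in the later pairs. The part of this mix in the bulge levels was not tested.

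In the basal pool, Sox9 fell, the only gene of the 7 that could be tested to be called, where 11.4% of 7957 genes were called, 6.76% as lower, and 6.5% did not overlap between arms. It stood at 842, 624, 747, 589.6 and 612 CPM in the control libraries and at 550.2, 439.7, 541, 489 and 497 CPM in the expanded ones. Every expanded library lay below every control library, and the level was lower in 5 of 5 pairs (683 ± 108 against 503 ± 44.4 CPM, log2 -0.57, SE 0.14, adjusted p = 0.0211). One call of 7 is close to the background share. The call was lost without the control library of day 1, round 1 (log2 -0.47, adjusted p = 0.0723) or the expanded library of day 1, round 2 (log2 -0.49, adjusted p = 0.0777), and at a common depth of 2000 UMIs per cell (log2 -0.43, adjusted p = 0.185). Cd34 and Tbx1 did not pass the filter on low counts, and Lrig1 (114 ± 35.6 against 86.9 ± 23.1 CPM, log2 -0.48) had an adjusted p of 0.197, or 0.0454 with the library pairs as a block. The block called 1150 of 7957 genes there.

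The basal pool joins clusters that differ in Sox9. Within cluster 0, led by Foxq1 and Pdk4, Sox9 was 944 ± 196 CPM in control and 770.1 ± 194 in expanded libraries and lower in 5 of 5 pairs (log2 -0.39, SE 0.12, adjusted p = 0.155, 0.492% of genes called). In clusters 1 and 7 the log2 fold changes were -0.27 (adjusted p = 0.573, 0.562% of genes called) and -0.23 (adjusted p = 0.556, 4.56%), with higher values in the expanded library of 2 of 4 and 1 of 4 pairs. Cluster 3, led by Bmp3 and Slc4a8, held 71.4 ± 66.7 CPM in 4 control and 38.1 ± 24.4 in 2 expanded libraries with at least 10 cells, too few for a test. Cluster 0 made up 34.4%, 40.1%, 66.7%, 34.5% and 58.6% of the basal pool in control libraries and a smaller share in the expanded library of every pair (18.9%, 25.1%, 36.7%, 30.6% and 52.4%). Cluster 1 had the next highest Sox9, at 874 CPM in control and 707 CPM in expanded libraries. Its share of the pool rose in every pair, from 25.0%, 7.48%, 8.33%, 21.4% and 14.1% to 34.25%, 16.99%, 20.4%, 30.6% and 21.95%. The shares of clusters 3 and 7 moved both ways over the pairs. The net effect of these shifts on Sox9 in the pool was not tested. The fall in the pool came with a lower expanded mean in each of the 3 clusters tested. None of these passed by itself, and only cluster 0 was lower in every pair.

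The change of Sox9 was then compared between follicle compartments. The effect in the bulge minus that in the basal pool was 0.59 on the log2 scale (SE 0.16), but edgeR's adjusted p was 0.375, and 0.0768% of 9112 genes passed. With at least 10 cells per library, an alternative minimum, the hair germ could be tested. Sox9 was 314, 266, 168, 128 and 151 CPM in the 5 control libraries and 729, 796, 251 and 461 CPM in the 4 expanded ones (day 2, round 2 had too few cells). Every pair was higher in the expanded arm, with an overlap between the lowest expanded value and the control libraries of day 1 (205 ± 80.2 against 559 ± 251 CPM, log2 1.28, SE 0.21, adjusted p = 0.015, where 0.322% of 4660 genes were called). Of expanded hair germ cells 85.4% had a Sox9 UMI, against 61.0% of control ones (56.5% against 25.5% when thinned to 2000 UMIs). These shares pool cells over all libraries and days, with the expanded library left out of the test among them, and carry no test. Of 171 expanded cells 96 came from day 1, round 2, and of 146 control cells 34. The call was lost without the day 4 control library (log2 1.11, adjusted p = 0.22), the day 4 expanded library (1.14, 0.197) or the expanded library of day 1, round 2 (1.25, 0.0786). The difference of effects, a test added after seeing the data, was for hair germ minus basal pool 1.92 (SE 0.31, adjusted p = 0.00337, where 0.979% of 8373 genes passed), and for hair germ minus bulge 1.14 (adjusted p = 0.104, 0.0645% of 7755 genes).

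**Figure D2:**
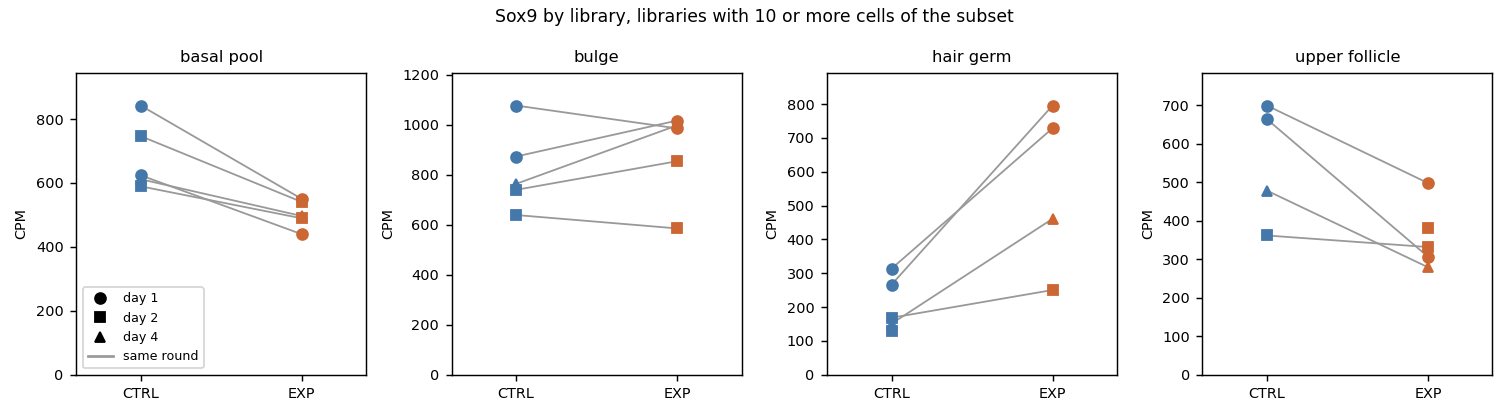
Sox9 level in CPM (vertical axis, from 0) in control and expanded libraries (horizontal axis) for 4 keratinocyte subsets, 1 point per library with at least 10 cells, marker shape by day and grey lines between libraries of the same day and round. All 5 lines fall in the basal pool (means 683 to 503 CPM), the lines run both ways in the bulge, and all 4 lines rise in the hair germ (205 to 559 CPM over all points).

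In the upper follicle, tested at the same minimum of 10 cells, Nfatc1 fell from 85.1, 86.5, 63.1 and 71.8 CPM in 4 control libraries to 30.2, 37.0, 36.1, 42.8 and 39.4 CPM in the expanded ones. The arms did not overlap (76.6 ± 11.2 against 37.1 ± 4.66 CPM, log2 -1.15, SE 0.23, adjusted p = 0.0144, where 4.72% of 4724 genes were called and 8.04% did not overlap), and the effect minus that in the basal pool was -0.93 (adjusted p = 0.24, 0.211% of 8056 genes). The adjusted p rose to 0.0527, 0.0605 and 0.0974 without the control library of day 1, round 2, the control library of day 1, round 1 or the expanded library of day 1, round 2. Sox9 there was 551 ± 159 against 359 ± 86.1 CPM (adjusted p = 0.0803) and Lrig1 75.1 ± 29.6 against 44.8 ± 25.1 (adjusted p = 0.138). Lhx2 in the upper follicle was 19.1, 11.7, 23.2 and 62.2 CPM in control and 17.6, 2.35, 2.78, 0 and 3.69 CPM in expanded libraries, lower in all 4 pairs, but rested on 0 to 13 UMIs per library and did not pass the filter on low counts. Its effect there minus that in the basal pool was -3.07 (adjusted p = 0.0635). Lhx2 was also lower in expanded cycling cells (77.5 ± 38.8 against 29.0 ± 29.3 CPM, adjusted p = 0.056, 5.66% of genes called) and in inner bulge or companion cells (453 ± 184 against 248 ± 92.1, adjusted p = 0.204, 0.556% of genes called), but neither was called.

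**Figure D3:**
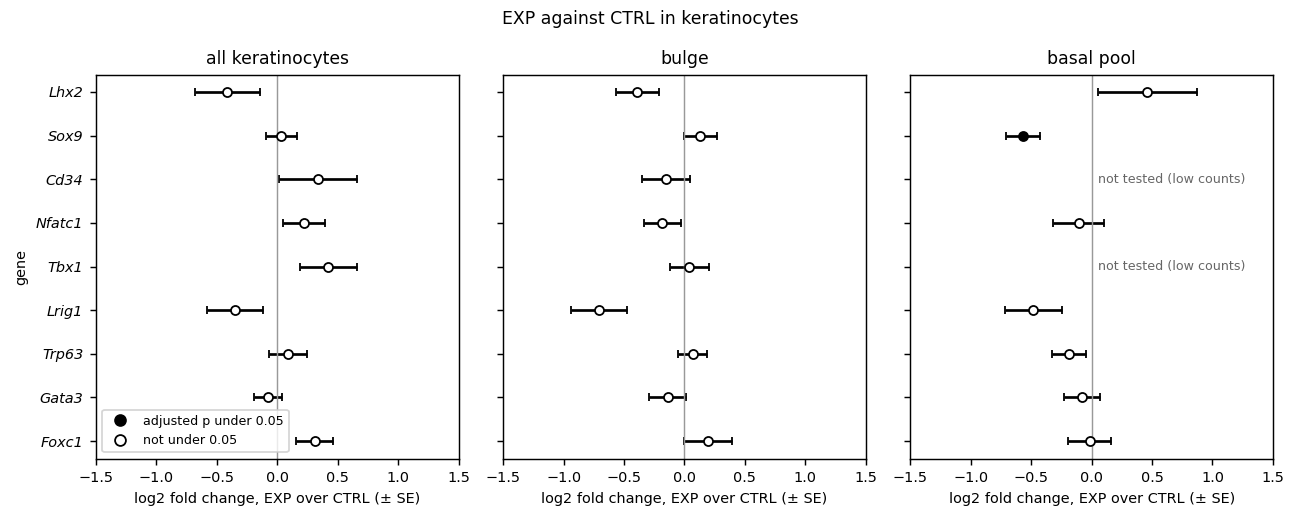
Log2 fold change of expanded over control with its standard error (horizontal axes) for the 9 genes (rows) in all keratinocytes, bulge and basal pool, from edgeR's quasi-likelihood fit. Sox9 in the basal pool (-0.57) is the only filled point, with an adjusted p under 0.05, and Cd34 and Tbx1 could not be tested there.

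Whether the difference between arms changed with the day was tested by an interaction term over all keratinocytes. None of the 9 genes was called (DESeq2 called 0 as well), where 0.00872% of 11465 genes, or 1 gene, passed, and 4 of the 9 had an unadjusted p under 0.05 (Lhx2 0.0142, Tbx1 0.0282, Trp63 0.0325 and Cd34 0.0338, quasi-likelihood test; adjusted p 0.458 to 0.539), as had 8.51% of all genes. For these 4 genes the expanded library was the higher of its pair on day 1 in both rounds. Cd34 was 54.8 and 30.6 CPM in control and 110 and 99.4 in expanded libraries of day 1, a log2 fold change of 1.22, and -0.18 on day 2 and -0.47 on day 4. Tbx1 was 47.4 and 32.3 against 99.0 and 74.3 CPM on day 1 (log2 1.05), then -0.17 and 0.09. Trp63 gave 0.52, -0.30 and -0.04. Lhx2 gave 0.34 on day 1, -0.79 on day 2 and -1.31 on day 4, with day 4 resting on 1 library per arm. The bulge, where Lhx2, Cd34, Tbx1 and Trp63 are all high, was 29.98% and 21.8% of control keratinocytes of day 1 and 47.8% and 41.1% of expanded ones, and its part in the day 1 difference was not tested.

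**Figure D4:**
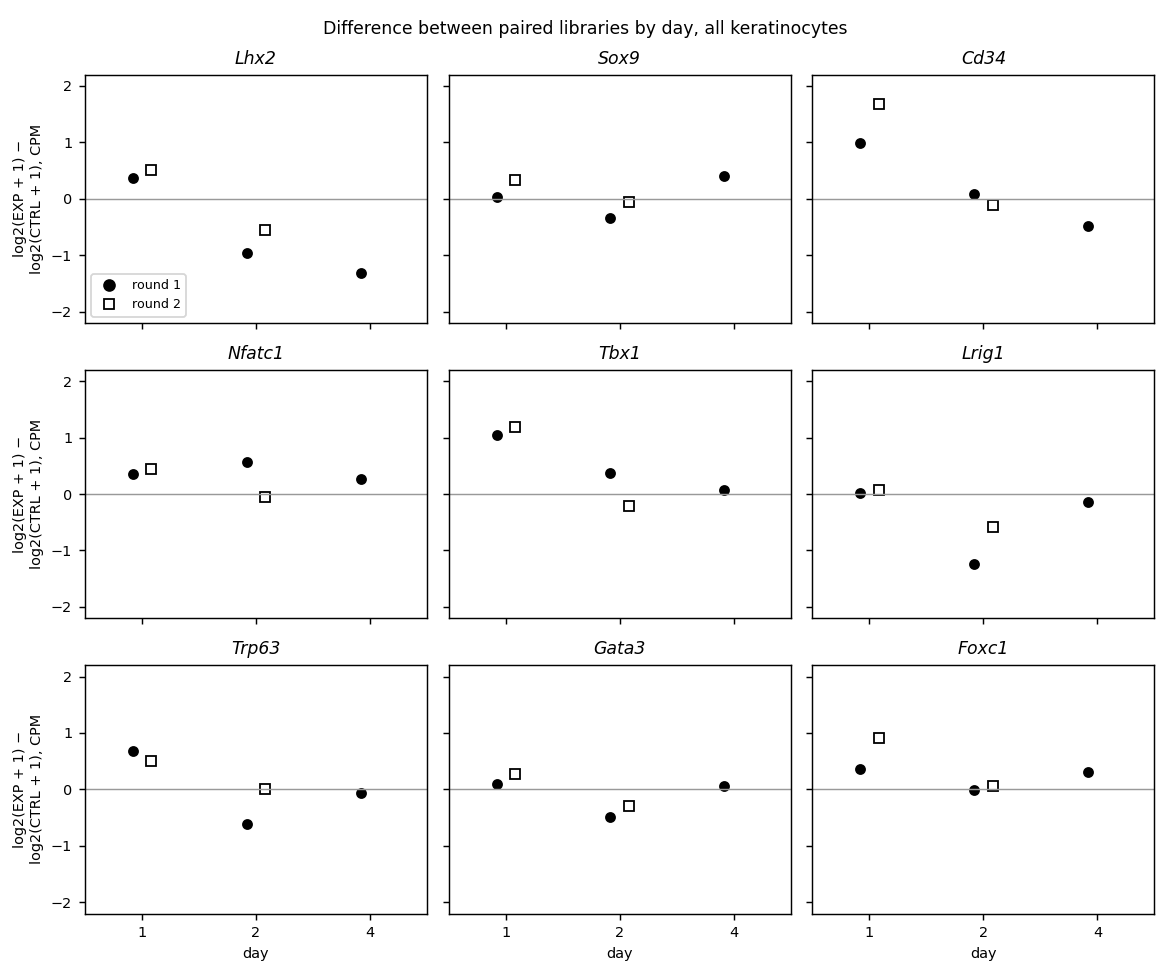
Difference between the expanded and the control library of a pair in log2(CPM + 1) over all keratinocytes (vertical axes) by day (horizontal axes) for the 9 genes, filled circles for round 1 and open squares for round 2. Lhx2 lies above 0 in both pairs of day 1 and below 0 in the other 3 pairs, and Cd34 and Tbx1 are highest on day 1.

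Other genes that govern follicle and epidermal cells were taken from 2 lists of 30. Among other stem cell regulators of the follicle, 0 rose and 3 of 28 tested fell in all keratinocytes, where 3.39% of all genes fell. These were Lef1, the nuclear partner of beta-catenin in hair growth (log2 -1.59, adjusted p = 0.00842), Gli3, a Hedgehog pathway factor (-0.70, 0.0212), and Msx2, a homeobox factor of the hair matrix (-1.10, 0.0479). The list's median was -0.125 against 0.01 for all genes. Of 192 hair matrix cells, where Lef1 and Msx2 are known to act, 187 were control cells, and their part in these falls was not tested. In the basal pool 3 of 23 fell, Sox4 (-0.70), Klf5 (-0.58) and Ets2 (-0.76), with a median of -0.37 against -0.01, where 6.76% of all genes fell. In the bulge only Gli3 of 26 fell (-0.83, adjusted p = 0.0359; 0.818% of all genes fell), with a list median of -0.22 against -0.01 for all genes.

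Among p63 partners and epidermal fate regulators, 1 of 30 rose in all keratinocytes, Itga3, an integrin that binds the basement membrane (log2 0.46, adjusted p = 0.0413), as did 3.95% of all genes. Prdm1, the transcriptional repressor Blimp1 (-0.98, 0.016), and Dlx3, a hair and epidermal homeobox factor (-1.68, 0.0321), fell, and the list median was -0.26. Dlx3 was also among the markers by which the hair matrix was named, with 187 control cells of 192, and their part in its fall was not tested. In the basal pool 6 of 27 fell (6.76% of all genes) and 0 rose, among them Sfn, the 14-3-3 sigma protein of stratifying keratinocytes (-0.80, 0.00851), Prdm1 (-1.21, 0.0241), Klf4, a factor of the epidermal barrier (-0.64, 0.0304), and Ovol1 (-0.93, 0.0335), with a list median of -0.35. In the bulge Prdm1 alone fell (-1.27, adjusted p = 0.0394) of 25 tested, and the list median was -0.07. Lef1 in all keratinocytes and Sfn in the basal pool were called in all 10 fits that left out 1 library. The other named results of both lists were lost without the control library of day 1, round 1 and also without the expanded library of day 1, round 2, and their largest adjusted p over such fits ran from 0.0648 to 0.174. With the library pairs as a block, Msx2 in all keratinocytes (adjusted p = 0.0541) and Gli3 in the bulge (0.0562) were not called.

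Outside the keratinocytes the members were tested in 7 cell classes, and 11 results were called, 5 in fibroblasts and 2 each in endothelial cells, pericytes or smooth muscle cells, and macrophages or monocytes. The share of all genes called was high in these classes, 28.6% in fibroblasts (14.3% higher and 14.3% lower), 14.6% in endothelial cells (7.31% lower), 20% in pericytes or smooth muscle (11.0% lower) and 25.0% in macrophages or monocytes (13.2% lower). In fibroblasts 3 of the 5 called members rose, and in the other 3 classes all 6 fell. Fibroblasts were tested as 1 class of 8988 control and 1092 expanded cells, with 62 to 384 cells per expanded library. They were not divided into subsets, and the part of their mix in the fibroblast results was not tested. None of the members tested was called in T cells or innate lymphoid cells, Schwann cells, or dendritic or Langerhans cells (0.757%, 0.14% and 20.2% of all genes called). In those 3 classes 2 of 3, 3 of 3 and 1 of 2 members that passed the filter on low counts had an unadjusted p under 0.05, as had 13.3%, 10.0% and 35.9% of all genes. With each cell thinned to 2000 UMIs, 2 of the 11 calls held (Cd34 and Sox9 in fibroblasts) and 4 were lost (Foxc1 in endothelial cells, Nfatc1 there and in fibroblasts and macrophages or monocytes). The other 5 (Foxc1 and Lhx2 in fibroblasts, Cd34 in macrophages or monocytes, and both pericyte results) no longer passed the filter on low counts and could not be tested.

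Foxc1, which vessels and their mural cells also use, fell in the vessel wall. In endothelial cells it was 35.8, 40.4, 47.8, 40.2 and 39.8 CPM in control and 26.7, 25.5, 17.3, 31.3 and 24.0 in expanded libraries. The arms did not overlap, as for 11.3% of genes there (40.8 ± 4.36 against 25.0 ± 5.09 CPM, log2 -0.80, SE 0.15, adjusted p = 0.00764). The difference was lost at 2000 UMIs per cell (log2 -0.14, adjusted p = 0.745). In pericytes or smooth muscle cells it fell from 60.6, 43.9, 45.0, 28.9 and 95.7 CPM to 16.8, 26.2, 11.3, 19.5 and 15.5 CPM, again with no overlap, as for 11.1% of genes (log2 -1.73, SE 0.29, adjusted p = 0.00236). In fibroblasts it was low and rose in 5 of 5 pairs, with no overlap, as for 18.6% of genes (1.86 ± 0.836 against 6.86 ± 2.68 CPM, log2 1.66, adjusted p = 0.00616). The effects differed between these classes in tests added after seeing the data, by -2.51 for endothelial minus fibroblast (adjusted p = 0.000699, where 5.27% of 11831 genes passed) and by -3.39 for pericyte minus fibroblast (adjusted p = 0.00108, 7.5% of 9358 genes).

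Nfatc1 fell in 4 classes. In endothelial cells it dropped from 105, 116, 122, 103 and 109 CPM to 83.5, 90.1, 95.3, 70.8 and 74.4 CPM (log2 -0.52, SE 0.13, adjusted p = 0.0214), and every expanded library lay below every control library. The call was lost without either day 4 library (adjusted p = 0.0857 and 0.088) or the round 2 control library of day 1 (0.0585), and at 2000 UMIs per cell (0.128). In pericytes or smooth muscle cells it was 65.3 ± 16.9 against 38.2 ± 10.1 CPM (log2 -0.88, adjusted p = 0.0102; 0.0536 and 0.0537 without the day 4 libraries). In fibroblasts it was 124 ± 20.5 against 102 ± 3.75 CPM (log2 -0.53, adjusted p = 0.00992), but -0.27 (adjusted p = 0.0775) with library totals as the only scaling and -0.55 (0.0615) with thinned cells. In macrophages or monocytes it was 32.6 ± 7.23 against 24.1 ± 3.11 CPM (log2 -0.51, adjusted p = 0.0368), and 7 of the 10 fits that left out 1 library gave an adjusted p of 0.0516 to 0.094, and thinned cells gave -0.27 (0.418). In all keratinocytes the same gene was 67.6 ± 21.2 against 83.1 ± 21.9 CPM, and the effect there minus that in fibroblasts was 0.89 (adjusted p = 0.0226, where 8.67% of 13134 genes passed).

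Cd34 in dermal fibroblasts fell from 598, 725, 758, 565 and 702 CPM to 571, 315, 170.0, 239 and 223 CPM. It was lower in 5 of 5 pairs, with a small difference in round 1 of day 1 and an expanded value there that overlapped the control range (670 ± 83.7 against 304 ± 158 CPM, log2 -1.498, SE 0.24, adjusted p = 0.0015). The call held without each library. In endothelial cells Cd34 was 339 ± 66.0 and 356 ± 81.5 CPM (log2 -0.05, 95% interval -0.41 to 0.32), and the effect there minus that in fibroblasts was 1.43 (adjusted p = 0.00936). For keratinocytes minus fibroblasts it was 2.00 (adjusted p = 0.0123). Fibroblast markers summed to 80837 to 192089 CPM in control and 41567 to 105221 CPM in expanded fibroblasts, and their part in the result was not tested. In macrophages or monocytes Cd34 was 7.62 ± 3.30 against 1.95 ± 1.36 CPM (log2 -2.14, adjusted p = 0.00394), while the fibroblast markers in those cells had medians of 1104 and 108 CPM. Of macrophages or monocytes 2.81% had a Cd34 UMI, against 1.92% of T cells or innate lymphoid cells. By arm the share was 4.33% in control and 1.23% in expanded macrophages or monocytes. It was 3.06% and 0.81% in T cells or innate lymphoid cells, so this background was lower in the expanded arm too. The part of fibroblast RNA in the macrophage value was not tested.

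Sox9 in fibroblasts rose in 4 of 5 pairs, from 6.14, 7.498, 16.6, 12.8 and 5.73 CPM in control to 17.7, 105, 9.79, 76.6 and 49.6 CPM in expanded libraries (log2 2.22, SE 0.58, adjusted p = 0.0149). The round 1 library of day 2 was the exception, and the adjusted p was 0.0537, 0.0557 and 0.0545 without the expanded library of day 2, round 2, the control library of day 4 or the expanded library of day 4. Of expanded fibroblasts, pooled over libraries, 21.1% had a UMI and of control ones 4.13% (9.11% and 1.70% thinned to 2000 UMIs). The 12 keratinocyte markers in fibroblasts summed to 31.1 to 83.1 CPM in control and 23.5 to 222 CPM in expanded libraries, and their part in the Sox9 values was not tested. Lhx2 was also called there (1.00 ± 0.526 against 2.48 ± 1.21 CPM, log2 1.27, adjusted p = 0.0387), at levels near 1 CPM, and 8 of the 10 fits that left out 1 library lost the call.

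**Figure D5:**
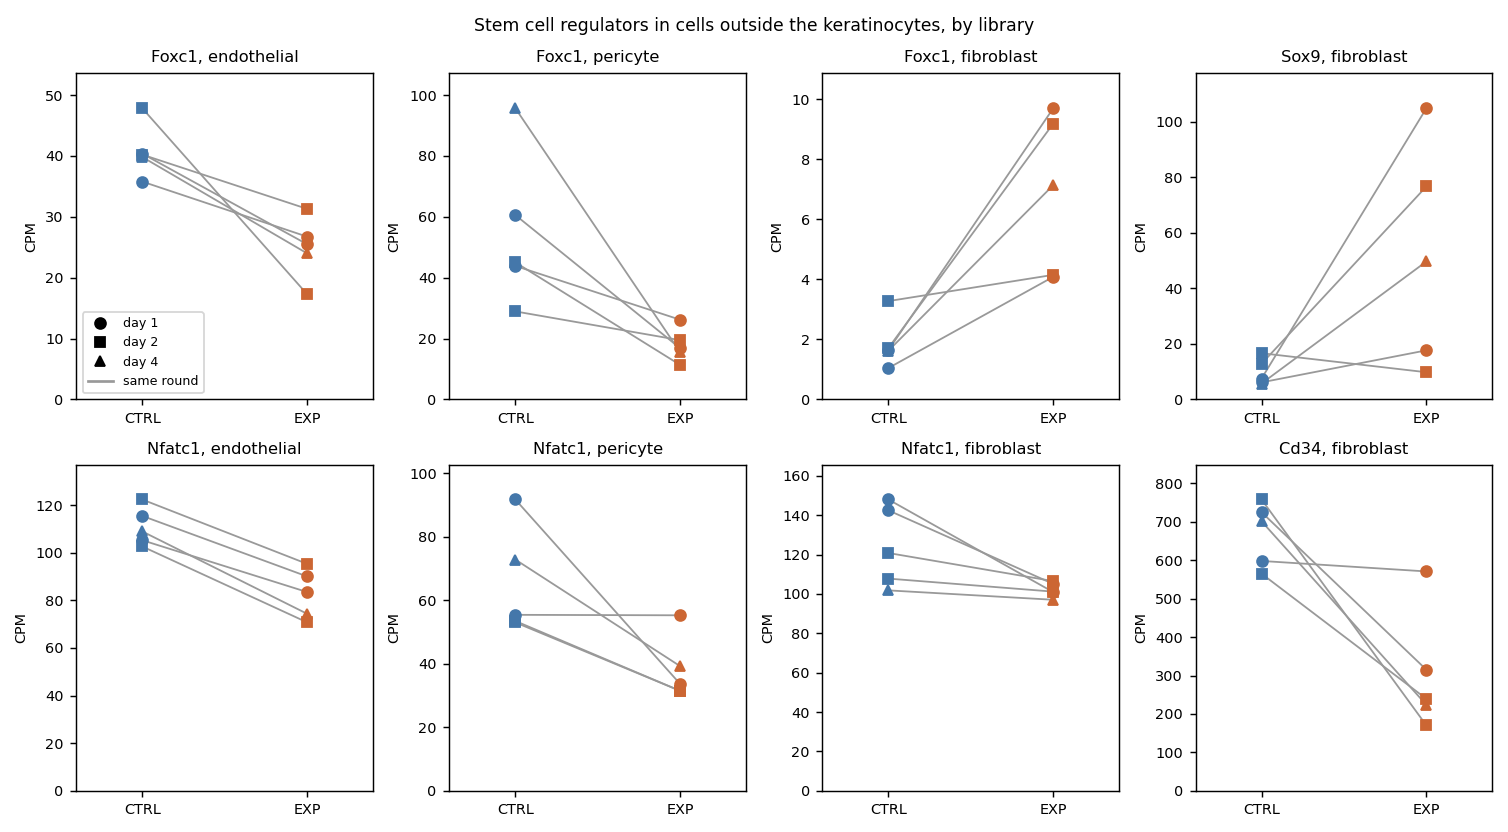
Levels in CPM (vertical axes, from 0) of Foxc1 and Nfatc1 in endothelial cells, pericytes or smooth muscle cells and fibroblasts, and of Sox9 and Cd34 in fibroblasts, for control and expanded libraries (horizontal axes), 1 point per library, marker shape by day and grey lines between paired libraries. Foxc1 and Nfatc1 fall without overlap in endothelial cells (40.8 to 25.0 and 111 to 82.8 CPM), and Foxc1 and Sox9 rise in fibroblasts except for Sox9 in round 1 of day 2.

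Gata3 in T cells or innate lymphoid cells was 212, 270.1, 233, 163 and 155 CPM in control and 175, 242, 113, 111 and 122 CPM in expanded libraries. It was lower in 5 of 5 pairs with overlapping arms (206 ± 48.5 against 153 ± 56.2 CPM, log2 -0.59, SE 0.16) and was not called (adjusted p = 0.139). It passed with the library pairs as a block (adjusted p = 0.0449, where 191 of 8715 genes were called) and in DESeq2 (0.042, 163 of 8715 genes). Tbx1 in endothelial cells, where it is known from lymphatic vessels, was higher in 5 of 5 pairs (24.1 ± 15.3 against 35.7 ± 24.0 CPM, log2 0.36, adjusted p = 0.492) and was not called either.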

How the data were processed

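Single-cell UMI counts per gene and cell barcode were deposited by the authors as filtered matrices, made with Cell Ranger 6.1.2 on mm10, per the submitters' processing notes. Strand use and annotation release are not given in the sources used here. The deposited hashtag counts of 8 antibody libraries were used only to mark doublets. The 9 genes and both lists were chosen with earlier results of these data known.

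Cells needed 200 genes, 500 UMIs and a mitochondrial share of 10% or less. Scrublet (scanpy 1.11.5) removed the highest-scoring cells in proportion to cell number, since its own threshold marked 0.0292% to 2.96% of cells. Cells with a second hashtag of at least 50 counts and at least 1/3 of the first were also removed. Cells were clustered with the Leiden method of igraph, called from scanpy (2000 variable genes without the 9, 30 components, 15 neighbours, resolution 1), and named from marker lists. A marker counted where it was detected and raised over the other cells. Keratinocyte clusters needed at least 6 of 12 such markers. Other names needed at least 3, with a lead over the next list and a limit on the share of cells from 1 library. After seeing the data, unnamed clusters with at least 6 of 10 basal markers above the spinous level were joined as the basal pool, and hair germ and matrix were split by Krt25. Total UMIs ran from 17726739 to 75470722 per library.

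UMI counts were summed per library and class with at least 20 cells, and a class was tested with at least 4 such libraries per arm. The test was edgeR 4.0.16 quasi-likelihood (R 4.3.3) with TMM factors, filterByExpr and day as a factor, with Benjamini-Hochberg adjustment over all genes and a threshold of 0.05. Control and expanded libraries of a day share a sequencing round by their titles. Their deviations correlated at 0.32 on day 1 and 0.11 on day 2 across genes, so the pair was used as a block in an alternative. DESeq2 1.42.0, other filters, scalings and clusterings were further alternatives. P-values and the intervals of log2 fold changes measure the spread between pooled libraries, and limits on counts of 0 cover counting error only.

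The text names all 9 genes, up to 4 list genes per direction with the smallest adjusted p under 0.05, and the 3 genes most like each of the 9. The test was tried on simulated counts, where it recovered 67.8% of changes of 1 and 96.4% of changes of 2 on the log2 scale among 11465 genes of all keratinocytes.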

Additional observations from a re-analysis of the deposited data

Results flagged for a closer look

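In 2 of 76 groups of 4 or 5 libraries 1 library stood apart from the rest by Dixon's gap, and chance gives about 1 in 20. Lrig1 in all keratinocytes was 72.1 CPM in the expanded library of day 1, round 1, against 34.5 to 40.5 CPM in the other expanded libraries. Gata3 in the bulge was 139 CPM in the round 1 control library of day 1, against 83.0 to 87.1 CPM in the other control libraries.

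The difference between arms itself differed between classes for 4 of the genes in edgeR's quasi-likelihood test, with p-values adjusted over all genes. These contrasts were added after seeing the data. The share of all genes that passed was 0.979% for hair germ minus basal pool and 5.27% for endothelial cells minus fibroblasts. It was 7.5% for pericytes or smooth muscle cells minus fibroblasts and 8.67% for keratinocytes minus fibroblasts. For Sox9 it was larger in hair germ than in the basal pool by 1.92 on the log2 scale (adjusted p = 0.00337). For Cd34 it was larger in endothelial cells than in fibroblasts by 1.43 (adjusted p = 0.00936) and in keratinocytes than in fibroblasts by 2.00 (adjusted p = 0.0123). For Foxc1 the difference was -2.51 for endothelial cells minus fibroblasts (adjusted p = 0.000699), -3.39 for pericytes or smooth muscle cells minus fibroblasts (adjusted p = 0.00108) and -1.20 for keratinocytes minus fibroblasts (adjusted p = 0.043). For Nfatc1 it was 0.89 for keratinocytes minus fibroblasts (adjusted p = 0.0226).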

How the results depend on the processing

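Over 53 results of a gene in a class and 1152 alternatives, 964 kept direction and side of the threshold, 153 lost a call, 9 gained one and 26 changed sign. The changes of sign all concerned values that were not called, and the cause of each change was not tested.

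Counts of the 9 genes called moved as follows. In all keratinocytes (0 called), no filter on low counts gave 2, Lhx2 (-0.39, adjusted p = 0.0496) and Tbx1 (0.44, adjusted p = 0.0295), and leaving out 1 library gave 0 to 1. With no filter 1917 of all 21938 genes were called there, against 842 of 11465 with the filter. In bulge and basal pool (1 called), the library pairs as a block gave 2, with Lrig1 in the basal pool added, thinned cells gave 0, and leaving out 1 library gave 0 to 1. Of all genes, the block called 262 of 8398 in bulge and 1150 of 7957 in the basal pool. Thinned cells gave 36 of 3445 and 95 of 2608. In the other classes (11 called), thinned cells gave 2 (4 calls lost and 5 not testable), no day 4 libraries gave 7, and leaving out 1 library gave 7 to 11. Without day 4, 2225 of 11778 genes were called in fibroblasts and 638 of 9599 in endothelial cells. In pericytes or smooth muscle cells it was 618 of 6392, and in macrophages or monocytes 1392 of 9680. Thinned cells gave 1391 of 7540, 447 of 6543, 431 of 1954 and 1416 of 6970 genes in the same order. The test by day (0 called) gave 3 with no filter, and 0 to 0 without 1 library. The bulge minus basal difference (0 called) gave 1 with no filter (Sox9 0.62, adjusted p = 0.0331) and 1 at double resolution (Sox9 0.85, adjusted p = 0.0443). For these alternatives of the test by day and of the bulge minus basal difference, the share of all genes that passed is not given here. The block added Lrig1 in the basal pool and Gata3 in T cells or innate lymphoid cells, ended the calls of Gli3 in bulge (adjusted p = 0.0562) and Msx2 in all keratinocytes (0.0541), and changed no other call of these results, and 0 subset shares passed with the pairs compared. An adjusted p that DESeq2 gave as NA was left out.

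Signs changed for Sox9 in all keratinocytes with thinned cells (-0.020) and without day 4 (-0.064). In the basal pool they changed for Lhx2 at double resolution (-0.57), for Trp63 with thinned cells (0.017), and with library totals for Gata3 (0.055), Nfatc1 (0.021) and Foxc1 (0.11). Foxc1 there was also 0.032 with no filter, 0.13 with thinned cells and 0.0029 at a mitochondrial limit of 20%. Cd34 in bulge was 0.011 with thinned cells, 0.11 at double resolution and 0.074 without day 4. Without 1 library, the ranges were -0.064 to 0.13 for Sox9 and -0.0033 to 0.21 for Trp63 in all keratinocytes, -0.14 to 0.18 for Foxc1 and -0.22 to 0.12 for Nfatc1 in the basal pool, and -0.35 to 0.052 for Cd34, -0.28 to 0.00043 for Gata3 and -0.034 to 0.19 for Tbx1 in bulge.

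Library totals in place of TMM factors moved the share of called genes that were higher from 40.5% to 68.9% in the basal pool, 50.1% to 81.2% in fibroblasts, 50.1% to 68.1% in endothelial cells and 45.1% to 60.2% in pericytes or smooth muscle cells, and the median of all genes to 0.12, 0.27, 0.12 and 0.10. The difference of spinous and basal effects could not be fitted. Day 4 rests on 1 library per arm, and Cd34 and Tbx1 in the basal pool were too low to test.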
